A study of Homo sapiens with 14 samples.

Results

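The comparison set the control array of 22RV1 cells against the control array of LNCaP cells, 2 of the 14 arrays of a study of the transcription factor FoxA1 in prostate cancer lines. Both were chosen by their sample titles, 22RV1_shCtrl and LNCaP_siCtrl, and their columns stand in 1 deposited table together with the FoxA1-knockdown array of each line. LNCaP, a line grown from a lymph node metastasis of a prostate carcinoma, carried a control siRNA. 22RV1, a line from a human prostate xenograft that had regrown after castration of its host, carried a control shRNA. The labels name serum-supplemented RPMI as the medium of both lines and give no hormone treatment for either array. Each group was 1 array of total RNA from whole cultures, with no replicate, so the values below carry no test and no replicate error, and the control construct changed together with the line. Fewer cells with a transcript and less of it per cell cannot be told apart in such RNA.

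Both lines are widely used as models of luminal prostate cancer. Androgens bind a nuclear receptor that switches on secretory genes such as the kallikreins, and FoxA1 opens chromatin at many of the sites that this receptor uses. Differences between the lines before FoxA1 is removed are the base from which the knockdown starts in each of them.

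A value below is a normalized log2 intensity unless a difference is named, and a difference is 22RV1 minus LNCaP on that scale. A gene was called higher or lower in 22RV1 when its intensity was at least 2-fold apart and its probe was detected on the brighter array. Intensity rests on the sequence of each probe as well as on the amount of RNA, so levels of different genes are not compared. Where the dimmer array did not detect the probe, the fold is given as a lower bound against the detection limit. That bound holds for the processing used here, and other settings gave smaller differences for some genes.

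Of 20044 named genes, 14644 were detected on either control array. Of these, 2423 (16.5%) were called higher in 22RV1 and 1933 (13.2%) lower, and the median difference of all detected genes was 0.004. With median scaling in place of quantile normalization, which moved the median of all detected genes to -0.12, 2244 were higher and 2748 lower, so the balance of the directions depends on the scaling. Mean intensity was 447 on the LNCaP and 325 on the 22RV1 control array, and 51.9% and 53.2% of probes were detected. Between the LNCaP arrays labelled shCtrl replicates 1 and 2, processed at another core facility, 1.90% of detected genes were at least 2-fold apart and the SD of the differences was 0.39. That SD is the only measure of replicate spread for LNCaP control cells in the series. Calls rest on the brightest probe of a gene, and probes of a gene often differed. Of 911 genes called higher with at least 2 detected probes, 267 (29.3%) were at least 2-fold apart on all of them, and of 623 called lower 256 (41.1%).

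**Figure D1:**
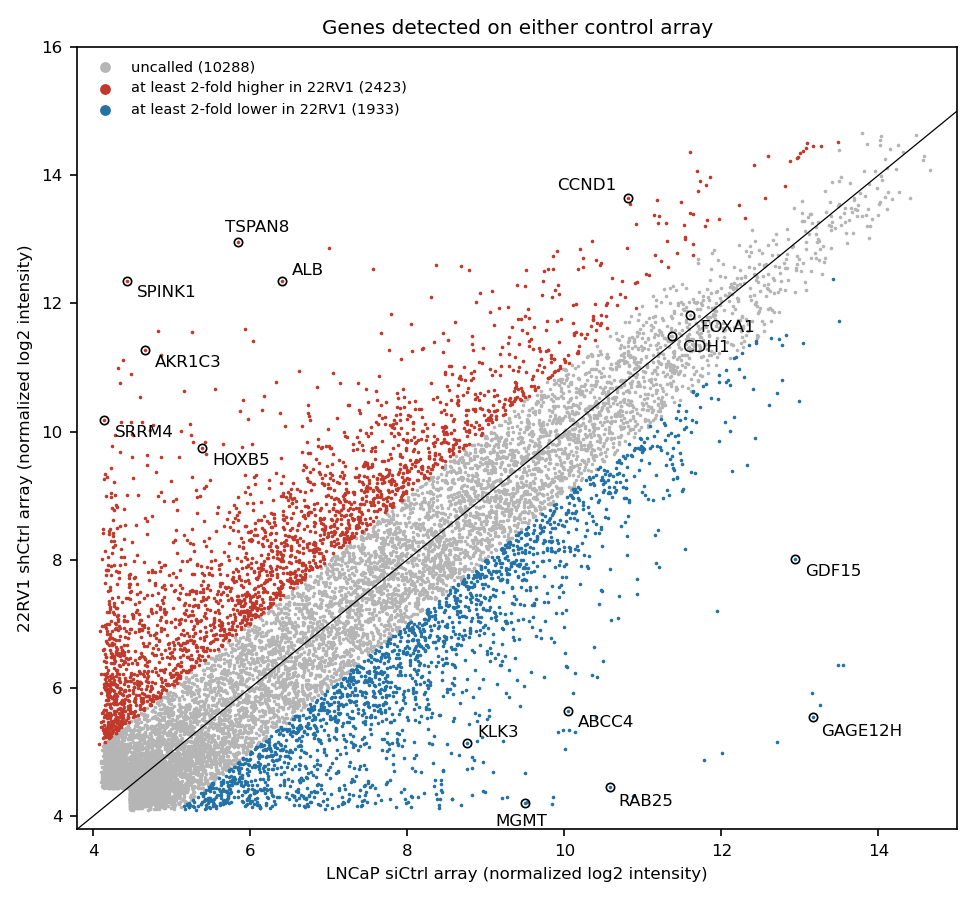
Normalized log2 intensity of each detected gene on the LNCaP siCtrl array (horizontal) and on the 22RV1 shCtrl array (vertical), 1 point a gene. The 2423 genes called higher in 22RV1 are red, the 1933 called lower are blue, and FOXA1 and CDH1 lie near the line of equal intensity while SPINK1 and GAGE12H lie farthest from it.

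FOXA1 itself was close on the control arrays, at 11.60 in LNCaP and 11.81 in 22RV1, a difference of 0.21 that is below the replicate SD. It was 10.79 on the LNCaP siFoxA1 array and 10.71 on the 22RV1 shFoxA1 array, lower than its control in each line. All 10 prostate luminal markers with a named probe were detected in both lines, among them EPCAM, the epithelial adhesion molecule, at 10.39 and 10.73, HOXB13, a prostate lineage factor, at 9.49 and 9.06, and keratin KRT8 at 9.87 and 10.20. Of the 10, 5 were called lower in 22RV1 (KLK3, ACP3, KRT18, KLK2 and SLC45A3) and 0 higher, with a median difference of -0.88. Of 11 leukocyte markers 6 were detected on either array, of 8 endothelial markers 2, and of 11 fibroblast and smooth muscle markers 8, while the pan-leukocyte PTPRC, the endothelial PECAM1 and the collagen COL3A1 were undetected on both. The summed linear level of the leukocyte markers was 400 in LNCaP and 895 in 22RV1, of the endothelial markers 298 and 155, and of the fibroblast markers 526 and 360. The members of these lists that were called were CD68, a lysosomal glycoprotein, and LUM, the proteoglycan lumican, higher in 22RV1, and VWF, the von Willebrand factor, and ACTA2, a smooth muscle actin, lower. Another CD68 probe differed by -0.74. Their part in the other differences was not tested.

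Genes that androgens activate were mostly lower in 22RV1. Of 25 with a named probe 24 were detected, 14 of them (58.3%) were called lower and 5 (20.8%) higher, and the median difference was -1.41. KLK3, which encodes the prostate-specific antigen, was 8.76 in LNCaP and 5.14 in 22RV1. On the knockdown arrays it was 9.61 and 6.32, so both 22RV1 arrays lay below both LNCaP arrays. The control difference of -3.62 is a 12.3-fold lower intensity. KLK2, the neighbouring glandular kallikrein, was 7.90 against 6.47 on the control arrays and 9.05 against 7.21 on the knockdown arrays. KLK4, a further kallikrein of the same cluster, was not called, at 11.87 against 12.54.

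The promoters of KLK3 and KLK2 are shown because these neighbours were lower together and androgen control of KLK3 is a textbook example. Each window runs from 250 bases before to 50 bases after the gene start on the plus strand (RefSeq, GRCh38.p14, chr19:50854665-50854964 for KLK3 and chr19:50873189-50873488 for KLK2). Capitals mark the match to GNACANNNNGTNC, a relaxed form of the androgen response element, searched on both strands.
KLK3: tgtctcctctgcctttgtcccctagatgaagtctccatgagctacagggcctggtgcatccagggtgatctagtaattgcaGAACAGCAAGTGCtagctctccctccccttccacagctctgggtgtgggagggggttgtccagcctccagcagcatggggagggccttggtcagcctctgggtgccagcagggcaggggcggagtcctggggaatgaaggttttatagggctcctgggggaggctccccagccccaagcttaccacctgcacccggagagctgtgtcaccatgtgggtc
KLK2: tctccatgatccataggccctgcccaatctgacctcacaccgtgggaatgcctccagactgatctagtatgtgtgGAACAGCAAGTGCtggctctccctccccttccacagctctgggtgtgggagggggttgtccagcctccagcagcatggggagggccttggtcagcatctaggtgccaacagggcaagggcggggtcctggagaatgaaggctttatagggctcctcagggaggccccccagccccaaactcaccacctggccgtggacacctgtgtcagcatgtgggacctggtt
The match began 169 bases before the KLK3 start and 175 bases before the KLK2 start, and its letters were the same in both. The longest run that the windows share without a difference, of 80 bases, lies outside the match. The KLK4 window held no match. Of 35116 promoters in the table, 769 (2.19%) held the motif. Among androgen-activated genes with a promoter in the table, it was held by 2 of the 11 called lower, KLK3 and KLK2, and by 0 of the 2 called higher. A match describes the letters and is not evidence of binding.

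Outside the kallikreins, ABCC4, a transporter of cyclic nucleotides and prostaglandins, had the largest difference of the androgen-activated list. It was 10.04 in LNCaP and 5.65 in 22RV1, and 9.81 and 4.61 on the knockdown arrays, which is a 21.0-fold lower intensity on the control pair. LRIG1, a restraint on receptor tyrosine kinases, was 9.05 against 5.57, and MAF, a basic leucine zipper factor, was 8.10 against 4.70. ACP3, the prostatic acid phosphatase, differed by -2.52, PPFIBP2, a liprin, by -2.54, and TMPRSS2, a membrane serine protease, by -2.30. SLC45A3, or prostein, was 11.02 against 9.84 on the control arrays and 9.72 against 6.42 on the knockdown arrays, so its difference went from -1.19 to -3.30.

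The 5 androgen-activated genes called higher in 22RV1 were FKBP5, ELL2, PMEPA1, TPD52 and ZBTB10. FKBP5, a co-chaperone of steroid receptors, was 10.11 in LNCaP and 11.98 in 22RV1. PMEPA1, a membrane protein of the TGF-beta pathway, differed by 1.49, ZBTB10, a zinc finger repressor, by 1.37, TPD52, a tumour protein of membrane traffic, by 1.32 and ELL2, an elongation factor, by 1.29. Other probes differed by as little as 0.08 for PMEPA1 and 0.47 for TPD52. Of these, 2 of 5 were also called higher on the knockdown arrays, FKBP5 and TPD52, against 13 of the 14 called lower. CAMKK2, a calmodulin-dependent kinase kinase, and FZD5, a WNT receptor, differed by -0.38 and 0.21 and were not called.

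The steroid-metabolising enzymes were split, with 6 of 22 detected members (27.3%) called higher and 6 (27.3%) lower. AKR1C3, which reduces androstenedione to testosterone, was 4.66 and 4.92 on the LNCaP control and knockdown arrays and 11.27 and 10.43 on those of 22RV1. Its intensity was 97.4-fold higher in 22RV1 on the control pair. The LNCaP value was near background, so the fold is imprecise, and AKR1C3 was detected on 0 of the 4 LNCaP shCtrl arrays. Over the processing settings its difference ran from 4.67 to 7.36. AKR1C2, which inactivates dihydrotestosterone, was 6.18 against 10.56, and AKR1C4, its liver-type relative, 5.98 against 9.14. These genes lie next to each other and are close in sequence, and 2 probes disagree in size for each of AKR1C2 (differences of 4.38 and 0.46) and AKR1C4 (3.16 and 0.19), so the levels of the relatives are uncertain. AKR1C1, the remaining member, was undetected on both arrays. HSD17B11, a short-chain dehydrogenase, was 2.23 higher on its brightest probe and -0.09 on another.

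Enzymes that conjugate steroids were lower or mixed. SULT2B1, a hydroxysteroid sulfotransferase, was 7.34 against 4.63, with another of its 3 detected probes at a difference of 0.03. UGT2B28, a glucuronosyltransferase, was 6.77 in LNCaP and undetected in 22RV1, at least 5.01-fold lower. UGT2B15 and UGT2B17, which glucuronidate androgens, went the other way by 1.13 and 0.86, and only UGT2B15 was called. Another of the 3 detected UGT2B17 probes differed by -0.28. On the knockdown arrays both were undetected in LNCaP, UGT2B15 at 4.27 and UGT2B17 at 4.50, and were 6.14 and 6.96 in 22RV1. Both were lower on the siFoxA1 than on the siCtrl array of LNCaP. These enzymes share much of their sequence, and cross-hybridization between them was not tested. Of 11 detected steroid receptors and corticosteroid targets 3 were lower and 0 higher, led by SGK1, a kinase induced by corticosteroids, at 7.40 against 5.10. NR3C1, the glucocorticoid receptor gene, was near background at 5.05 and 4.63.

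Genes of the luminal lineage list differed little on the control pair. Of 15 detected, 1 (6.67%) was called lower and 0 higher, against 13.2% and 16.5% of all detected genes. It was KRT18, a keratin of simple epithelia, at 9.07 in LNCaP and 7.10 in 22RV1. GATA2, a partner factor at androgen-regulated enhancers, was 8.73 and 8.71. On the knockdown pair SPDEF, CREB3L4 and XBP1 were called lower too, at differences of -1.49, -1.57 and -1.37. MYB and GATA3 were called higher there, at 1.42 and 1.13. Among surface and secreted prostate antigens 9 of 22 were lower and 4 higher. MSMB, the seminal microprotein, was 7.46 in LNCaP and undetected in 22RV1, at least 8.04-fold lower, and AMACR, a racemase of branched fatty acids, was 8.24 against 5.68. Other probes differed by as little as -0.54 for MSMB and -0.52 for AMACR. CD24, a surface sialoglycoprotein, was 5.81 against 8.65, with a second probe at a difference of 0.67. NPY, the neuropeptide Y gene, was undetected in LNCaP and 6.04 in 22RV1. FOLH1, the prostate-specific membrane antigen gene, differed by -0.57 on its brightest probe and by -2.70 on another.

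The largest difference in favour of 22RV1 was in SPINK1, a secreted trypsin inhibitor that marks a subset of prostate cancers. It was undetected on both LNCaP arrays, at 4.43 with siCtrl and 4.51 with siFoxA1, and was 12.35 and 11.82 on the 22RV1 control and knockdown arrays. On the control pair it was at least 236-fold higher in 22RV1. TSPAN8, a tetraspanin of gut and tumour epithelia, was 5.85 against 12.96. TIMP1, an inhibitor of matrix metalloproteases, was 5.26 against 11.55, and PLA2G3, a secreted phospholipase, was undetected in LNCaP and 11.12 in 22RV1, at least 100.1-fold higher. ANGPTL4, an inhibitor of lipoprotein lipase, and ADIRF, an adipogenesis regulator, were likewise undetected in LNCaP and at least 77.8-fold and 91.5-fold higher, with another ANGPTL4 probe at a difference of 1.19.

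Among the other leading genes, BEX1, a small neuronal adaptor, was 4.82 against 11.57 on its brightest probe, while a second detected probe differed by -1.28. RPL39L, a ribosomal protein paralogue of the testis, was 4.49 against 10.90. VGF, a secreted neuropeptide precursor, was 7.01 against 12.86. STOM, the membrane protein stomatin, was undetected in LNCaP and 10.16 in 22RV1, with a second probe at a difference of 2.27, and SGCE, a maternally imprinted sarcoglycan, was 4.60 against 10.54. ALB, which encodes serum albumin, was 6.40 against 12.35 on the control arrays and 6.57 against 7.88 on the knockdown arrays. ALB was thus high on the 22RV1 control array alone, by 5.95 against LNCaP, and by 1.31 on the knockdown pair.

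**Figure D2:**
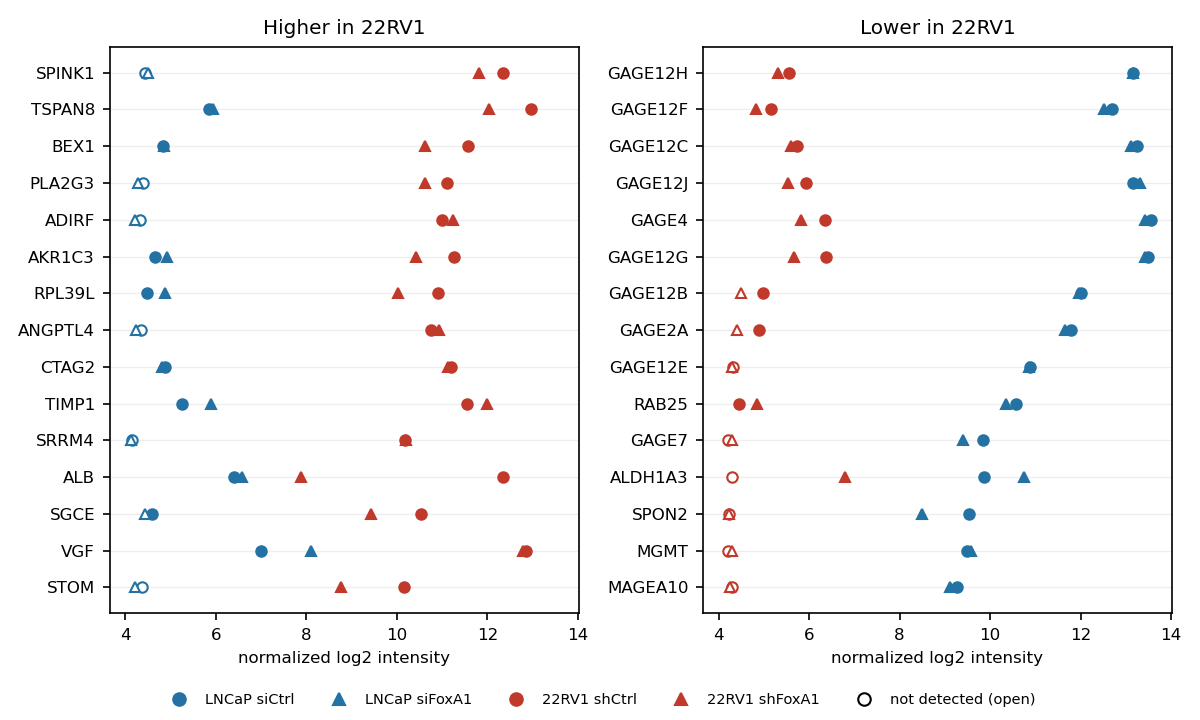
Normalized log2 intensity (horizontal) of the 15 genes with the largest difference in each direction among those also called the same way on the knockdown arrays, on the LNCaP (blue) and 22RV1 (red) arrays with control construct (circles) or FoxA1 knockdown (triangles), 1 array a symbol, open where not detected. A gap between the lines on both pairs was a condition of entry, and ALB has the widest gap between the 22RV1 arrays, 12.35 against 7.88.

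Genes of neuroendocrine cells were higher in 22RV1 as a group, with 8 of 16 detected members called higher, 2 (12.5%) lower and a median difference of 1.65. SRRM4, a splicing factor of neural exons, was undetected on both LNCaP arrays and was 10.18 and 10.20 on the 22RV1 control and knockdown arrays, at least 52.2-fold higher on the control pair. SNAP25, of the vesicle fusion machinery, was undetected in LNCaP and 8.38 in 22RV1, at least 14.97-fold higher, with a second probe at a difference of 1.32. The granins SCG3 and CHGB, of secretory granules, were undetected in LNCaP and reached 7.84 and 6.98. SYP, the vesicle protein synaptophysin, was 4.54 against 7.31 and ENO2, the neuronal enolase, 6.73 against 9.67. The vesicle sensor SYT4, at 10.24 against 12.57, and the granin SCG2, undetected against 6.68, complete the 8.

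The neuroendocrine genes did not move as 1 block. INSM1, a factor of endocrine differentiation, differed by 0.02, and CHGA, the granin used as a serum marker, was 4.49 against 5.26 and was not called. DDC, the dopa decarboxylase, was 9.64 in LNCaP and 7.39 in 22RV1, and UCHL1, a neuronal deubiquitinase, was 6.39 against 4.49. The same 8 members were called higher and the same 2 lower on the knockdown arrays, and for all 10 the 4 LNCaP shCtrl arrays ranked on the LNCaP side. Basal epithelial markers were near background in both lines, with 9 of 13 detected and 1 called, the cytolinker DST, undetected in LNCaP and 5.66 in 22RV1.

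The ETS family of transcription factors had 8 of 21 detected members called higher in 22RV1 (38.1%) and 0 lower, with a median difference of 0.89. ELF5, an epithelial factor best known from the mammary gland, was 6.08 against 9.32, and ETV5, of the PEA3 group, was undetected in LNCaP and 7.23 in 22RV1, at least 6.75-fold higher, though a second ETV5 probe differed by 0.28. A second probe of ELF5 differed by 1.63. GABPA, ELF2 and ETV6 differed by 1.62, 1.53 and 1.45, with another ELF2 probe at 0.45. The probe of ETV1, a PEA3-group factor, was undetected on both arrays, at 4.18 and 4.21, and on all 4 LNCaP shCtrl arrays. Whether that probe reads the ETV1 transcript was not tested, so absence of the transcript is not shown. Of 18 detected HOX genes, which encode the positional homeobox factors, 6 (33.3%) were higher and 0 lower. HOXB5 was 5.39 against 9.75, and HOXB7, HOXB8 and HOXC8 were undetected in LNCaP and at 7.76, 6.93 and 7.14 in 22RV1.

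Cancer-testis antigens, which are normally limited to germ cells, differed in both directions. Of 27 detected members 11 (40.7%) were lower in 22RV1 and 6 (22.2%) higher, and the same calls were made on the knockdown arrays. The GAGE genes were the farthest below LNCaP in the comparison. GAGE12H was 13.17 and 13.15 on the LNCaP control and knockdown arrays and 5.55 and 5.32 on those of 22RV1, a difference of -7.62. GAGE12F, GAGE12G and GAGE2A differed by -7.55, -7.12 and -6.90. MAGEA10 was 9.27 in LNCaP and undetected in 22RV1, at least 28.4-fold lower, though another of its probes differed by -0.66. In the other direction, CTAG2 was 4.87 against 11.20, with a second probe at a difference of 1.40, and MAGEA4 was 5.98 against 10.20.

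The GAGE genes are known as near-identical copies, and which copies a probe reads was not tested. Of 13 GAGE promoters in the RefSeq table, 8, GAGE12F included, were the same over all 300 bases, and 10 held all of it but the outer 10 bases on each side. The GAGE12F promoter (plus strand, GRCh38.p14, chrX:49560592-49560891) is shown as the sequence they share, with no bases in capitals because it held no match to the motif above.
GAGE12F: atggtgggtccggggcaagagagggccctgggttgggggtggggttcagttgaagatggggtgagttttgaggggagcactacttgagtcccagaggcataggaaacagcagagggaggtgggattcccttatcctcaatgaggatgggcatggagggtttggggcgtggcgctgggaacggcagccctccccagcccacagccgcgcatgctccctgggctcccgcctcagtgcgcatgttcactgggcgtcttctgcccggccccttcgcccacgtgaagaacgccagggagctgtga
These windows lie mostly before the transcripts, so they describe the copies and not the probes, and the share of each copy in the values is uncertain.

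Other genes far lower in 22RV1 included RAB25, of the junction list, ALDH1A3, of the detoxification list, and SPON2. RAB25, a small GTPase of epithelial vesicle recycling, was 10.58 in LNCaP and 4.45 in 22RV1, a 69.9-fold lower intensity on the control pair. On the knockdown arrays it was 10.34 and 4.85. Its raw intensity of 95.9 on the 22RV1 control array lay just above the detection limit, so the fold is imprecise. Over the processing settings the RAB25 difference ran from -6.70 to -4.07. ALDH1A3, which makes retinoic acid, was 9.86 and then undetected, at least 42.4-fold lower. On the knockdown arrays ALDH1A3 was 10.75 in LNCaP and 6.79 in 22RV1. SPON2, a matrix protein that prostate cancers secrete, was at least 33.8-fold lower.

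Of 14 detected members of the repair list 7 were called higher in 22RV1, 1 lower and 6 were not called. MGMT, which removes alkyl groups from guanine in DNA, was 9.49 and 9.59 on the LNCaP control and knockdown arrays and undetected on both 22RV1 arrays, at least 33.0-fold lower on the control pair. The uncalled members ran from PMS2, of mismatch repair, at -0.82 to POLE, a replicative polymerase, at 0.81. BRCA1, of recombination repair, was 5.96 against 7.78 and EXO1, a nuclease of mismatch repair, 7.28 against 8.81, with a second EXO1 probe at a difference of 0.41. ATM, the break-sensing kinase, was 1.77 higher on its brightest probe and -0.65 on another, and MSH3, of mismatch recognition, was 1.28 and -0.55.

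Among cell-cycle genes, mitosis genes had 8 of 22 detected members (36.4%) higher and 1 lower, the kinase PLK1, at 7.18 against 5.87. KIF11, the spindle motor, was 6.24 against 9.12 and TOP2A, the topoisomerase of dividing cells, 8.48 against 10.90. The median of the list was 0.50, and it turned to -0.03 under 1 alternative processing. Of 20 replication genes 2 (10.0%) were higher and 0 lower, shares below the 16.5% and 13.2% of all detected genes. The 2 were RRM1, by 1.015, and ORC6, by 1.30 on its brightest probe and -0.80 on another. The helicase subunits MCM5 and MCM6 differed by -0.06 and 0.13. CCND1, cyclin D1, was 10.81 in LNCaP and 13.65 in 22RV1, with 10.99 and 13.57 on the knockdown arrays. CDK6, its partner kinase, was undetected in LNCaP and 6.10 in 22RV1, at least 3.09-fold higher, whereas the cyclins CCND3 and CCNE1 differed by -1.14 and -1.48.

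Targets of p53 included 5 of 20 (25.0%) lower and 1 (5.0%) higher. GDF15, a stress-induced cytokine, was 12.93 in LNCaP and 8.02 in 22RV1, a 30.2-fold lower intensity, and 12.79 against 9.85 on the knockdown arrays. PHLDA3, a repressor of AKT, was 8.22 against 6.09, while TNFRSF10B, a death receptor, differed by 0.006 on its brightest probe and by -1.20 on another. In the PI3K pathway 6 of 29 (20.7%) were lower and 3 (10.3%) higher. IRS2, an adaptor of the insulin receptor, was 6.02 against 9.81, and PIK3CD, the delta catalytic subunit, was 7.73 against 4.50. DDIT4 and TSC2, which restrain mTORC1, differed by -2.72 and -2.50, with a second TSC2 probe at -0.32. Of the WNT pathway 3 of 20 were higher and 1 lower, shares below the 16.5% and 13.2% of all detected genes. They were the secreted inhibitor DKK1 by at least 10.8-fold, the nuclear effector LEF1 by 2.69 and the ligase RNF43 by at least 2.69-fold, and below LNCaP the ligand WNT7B, at a difference of -2.23 and of -0.77 on a second probe.

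**Figure D3:**
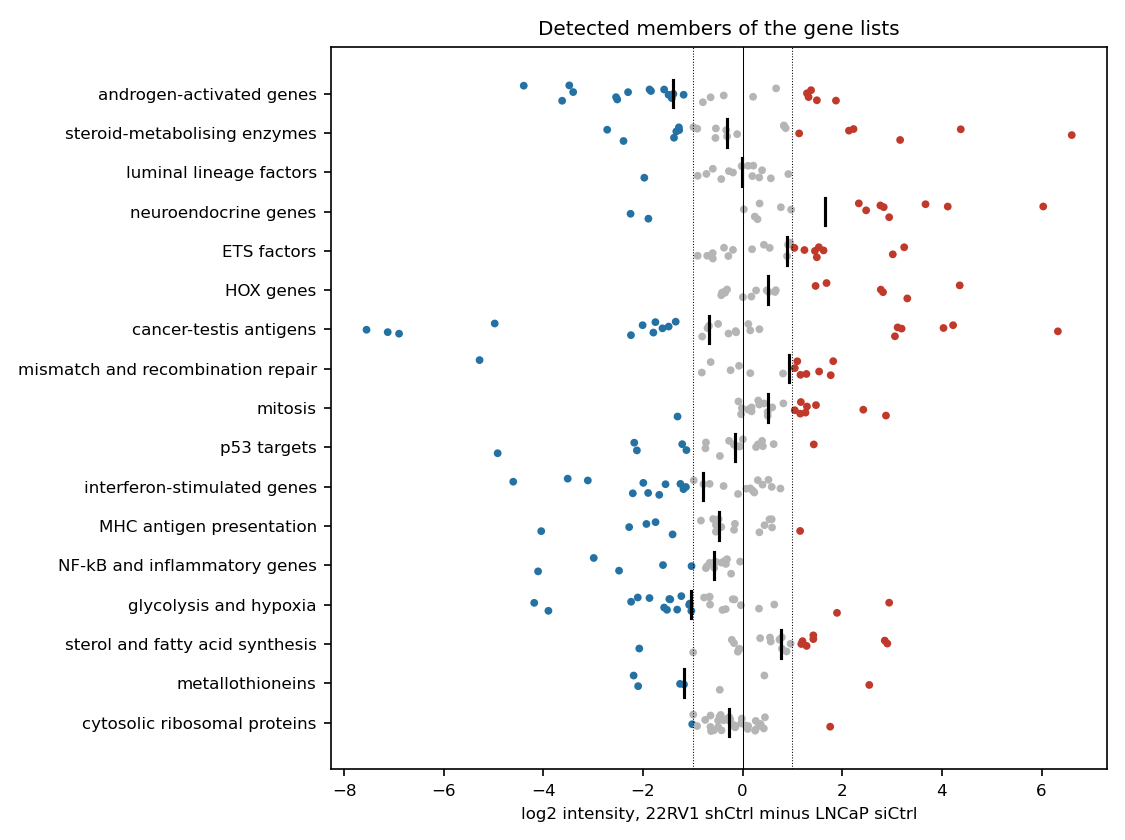
Difference in log2 intensity, 22RV1 shCtrl minus LNCaP siCtrl (horizontal), of each detected member of 17 gene lists, 1 point a gene, red where called higher in 22RV1 and blue where called lower, with a black bar at the median. The medians run from -1.41 for androgen-activated genes to 1.65 for neuroendocrine genes, and the ribosomal protein genes lie mostly within 2-fold.

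Interferon-stimulated genes were lower in 22RV1, with 11 of 25 detected members (44.0%) lower, 0 higher and a median of -0.79. IFI6, an inhibitor of cell death, was 9.92 in LNCaP and 5.31 in 22RV1, a 24.3-fold lower intensity. OASL and IFIT1, antiviral effectors, were 7.78 and 7.48 in LNCaP and undetected in 22RV1, at least 10.1-fold and 8.18-fold lower, with second probes at differences of -1.45 and -0.08. The factors IRF7 and IRF1 were 8.25 against 6.05 and 6.94 against 5.05. Not all of the pathway differed, since MX1, an antiviral GTPase, was 6.16 against 6.07 and ISG15, a ubiquitin-like modifier, 11.06 against 11.46. For 10 of the 11, all 4 LNCaP arrays with a control shRNA ranked above 22RV1. OASL stood at the 63.1 to 76.0 percentile of those 4 arrays, at 77.1 on the LNCaP siCtrl array and at 20.1 on the 22RV1 array. IRF7 stood at 71.4 to 78.1, at 80.9 and at 60.7. The part of the construct in these differences was not tested.

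Antigen presentation and inflammatory genes went the same way. Of 19 detected antigen presentation genes 5 (26.3%) were lower and 1, the loading factor TAPBP, higher, by 1.15 and by 0.49 on a second probe. HLA-DMA, a class II chaperone, was 9.21 against 5.17, and the class I chains HLA-B, HLA-C and HLA-F differed by -1.75, -1.41 and -2.28. HLA chains are close in sequence and vary between people, and 1 probe need not read them alike in both lines. Of 17 NF-kB and inflammatory genes 5 (29.4%) were lower and 0 higher. LCN2, the iron-trapping lipocalin, was 8.38 in LNCaP and undetected in 22RV1, at least 15.2-fold lower, and the chemokine CCL20 was 7.51 against 4.52. SLPI, a leukocyte protease inhibitor, was 6.98 with siCtrl, 10.48 with siFoxA1 and undetected on both 22RV1 arrays.

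Glycolysis and hypoxia genes were mostly lower in 22RV1, 14 of 27 (51.9%) against 2 higher, with a median of -1.03. PFKP, a phosphofructokinase, was 10.11 in LNCaP and 5.92 in 22RV1, an 18.2-fold lower intensity, with a second probe at a difference of -0.99. ANKRD37, a hypoxia target, was 8.82 against 4.93, BNIP3, of mitophagy, 11.62 against 9.38, and PGAM1, a glycolytic mutase, 12.11 against 10.01. The 2 members called higher were ENO2, which also stands in the neuroendocrine list, and ADM, the vasodilator adrenomedullin, at 5.57 against 7.47. For 10 of the 14 lower genes all 4 LNCaP shCtrl arrays ranked on the LNCaP side.

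Sterol and fatty acid synthesis had 7 of 22 higher (31.8%) and 1 lower, with a median of 0.76 on the control pair and 0.08 on the knockdown pair. HMGCS1, an early enzyme of the mevalonate pathway, was 8.53 against 11.43 and ELOVL6, a fatty acid elongase, 6.90 against 9.75. SCD, the stearoyl desaturase, and INSIG1, a sterol sensor, each differed by 1.42 on the control pair and by -0.21 and -0.10 on the knockdown pair. FADS2, a desaturase, was 7.11 against 5.04. Of 7 detected metallothioneins, which bind zinc and copper, 4 were lower and 1 higher. MT1X was 12.60 against 10.42 and MT1E 7.60 against 10.14, with a second MT1E probe at -0.01, and these genes are near-identical in sequence.

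Detoxification enzymes were split, 8 of 34 (23.5%) higher and 10 (29.4%) lower, ALDH1A3 among the lower. The glutathione transferases GSTM1 and GSTM2 were undetected in LNCaP and at least 23.3-fold and 14.4-fold higher in 22RV1. Other probes differed by as little as 0.19 for GSTM1 and by 1.43 for GSTM2, and these genes are close in sequence. GSTA1, of the alpha class, was 8.58 in LNCaP and undetected in 22RV1, at least 17.5-fold lower. Of 26 stress response genes 4 (15.4%) were higher, among them the chaperones HSPA5 and HSP90B1 by 1.38 and 1.60. Another 5 (19.2%) were lower, among them SLC7A11, the cystine importer, by at least 6.58-fold. The shares of all detected genes were 16.5% higher and 13.2% lower, so this list lay near them. Of 37 ribosomal protein genes 1 was higher and 1 lower, which is the list with the smallest share called.

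Junction and mesenchymal genes had median differences of 0.045 and 0.163, with members called in both directions. E-cadherin, CDH1, was 11.37 in LNCaP and 11.50 in 22RV1. Vimentin, VIM, was 7.57 and 7.32, with a second probe at a difference of 0.76. Of 21 junction genes 4 (19.0%) were higher, led by cingulin, CGN, at 9.08 against 10.89. Another 5 (23.8%) were lower, led by RAB25 and the claudin CLDN8, at 7.40 against 4.78. Of 14 mesenchymal genes 4 (28.6%) were higher and 1 (7.14%) lower, and N-cadherin, CDH2, was 4.48 against 6.93. Over all detected genes 16.5% were higher and 13.2% lower. Of 11 keratins KRT19 was higher, at 7.92 against 11.13, and KRT10 and KRT18 were lower, at differences of -2.72 and -1.97. Among 30 serine proteases and inhibitors 7 (23.3%) were higher and 7 (23.3%) lower. Beside SPINK1, these included the kallikrein KLK11, undetected in LNCaP and 9.02 in 22RV1, the serpin SERPINB1, undetected and 9.33, and hepsin, HPN, at 9.37 against 6.48. Of 20 liver-type secreted proteins 3 were higher and 2 lower, shares below the 16.5% and 13.2% of all detected genes. The higher ones were ALB, the apolipoprotein APOC1 by 3.00 and the haem carrier HPX by 2.07. The lower ones were APOD, at a difference of -2.46, and ORM1, by at least 4.31-fold.

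The FoxA1-knockdown arrays are a second pair from the same lines that the calls above did not use. Of the 2423 genes higher in 22RV1, 2014 (83.1%) were called the same way on that pair and 4 the opposite way, and of the 1933 lower genes 1525 (78.9%) and 0. Line, construct and any handling that went with them are the same in both pairs, so the second pair is no check on the construct. Within a line the control and knockdown arrays differed far less, with 3.35% of detected genes at least 2-fold apart in LNCaP and 3.11% in 22RV1, against 29.7% between the lines on the control pair and 33.8% on the knockdown pair. Across 13307 genes the differences on both pairs correlated at 0.915 (Pearson) and 0.890 (Spearman), a description of arrays that were normalized together. The genes called in opposite directions were SOX9, SBSPON, MGP and PLIN2, of which SOX9, a factor of prostate development, was 5.83 against 8.04 on the control pair and 8.58 against 7.19 on the knockdown pair. SBSPON was undetected on the LNCaP control array, and against the detection limit it was at least 1.78-fold higher in 22RV1, which is under the 2-fold limit.

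**Figure D4:**
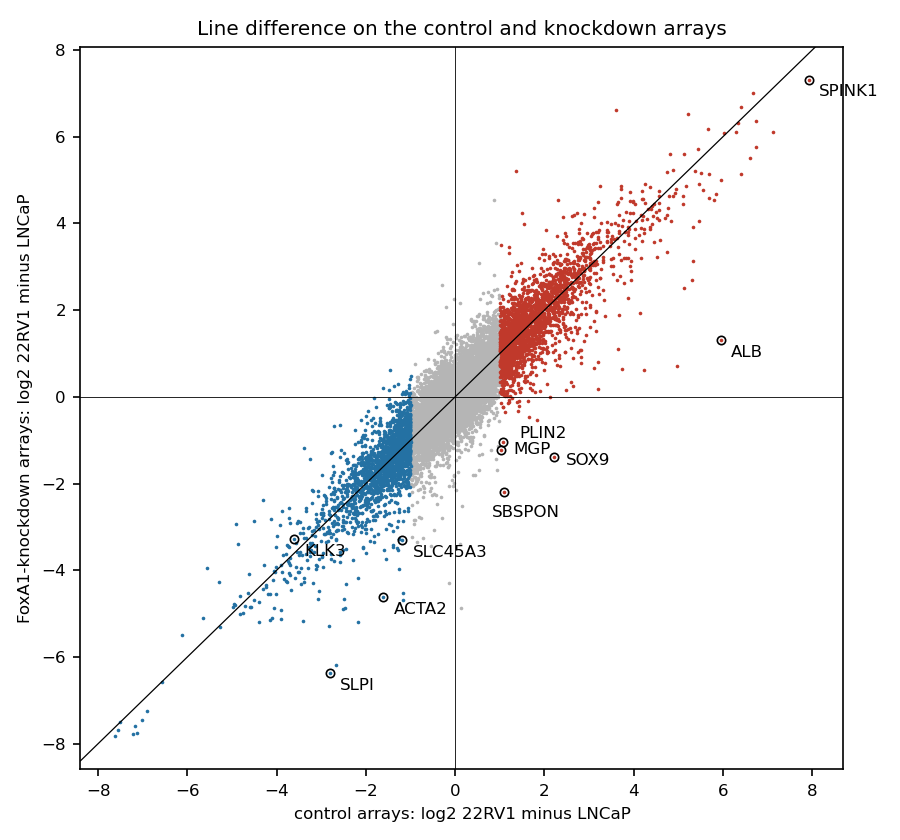
Difference in log2 intensity between 22RV1 and LNCaP on the control arrays (horizontal) and on the FoxA1-knockdown arrays (vertical), 1 point a gene, red and blue where called higher or lower on the control pair. Of the red genes 83.1% and of the blue 78.9% were called the same way on the knockdown pair, and ALB, SLPI and the genes called in opposite directions lie away from the line of equal difference.

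The LNCaP arrays with a control shRNA share that kind of construct with 22RV1_shCtrl. They came from another core facility and another table, so only the rank of a gene within its array was compared. For 1918 of the 2423 genes higher in 22RV1 (79.2%) and for 1568 of 1932 lower genes (81.2%), all 4 arrays ranked on the LNCaP side of 22RV1. Among detected genes that were not called, the share was 50.3% of those with the higher rank in 22RV1 and 38.5% of those with the lower. SPINK1 stood at the 98.8 percentile in 22RV1, at 33.5 on the LNCaP siCtrl array and at 13.4 to 14.3 on the LNCaP shRNA arrays. CCND1 stood at 99.7 in 22RV1 and at 95.7 to 96.1 on all 5 LNCaP arrays.

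KLK3 ranked unevenly among the LNCaP arrays, 1 array a medium apart from the numbered replicates. It stood at the 50.8 percentile in 22RV1, at 84.7 on the LNCaP siCtrl array, at 75.4 to 79.8 on the numbered and R1881 shRNA arrays, R1881 being a synthetic androgen, and at 55.7 on the hormone-deprived array. KLK2 on the hormone-deprived array, at 42.4, ranked below 22RV1, at 64.7. For UGT2B15, only 1 of the 4 arrays ranked on the LNCaP side, and for UGT2B17 2 of the 4. MGMT stood at 88.9 to 92.8 on the 4 arrays and at 12.9 in 22RV1.

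**Figure D5:**
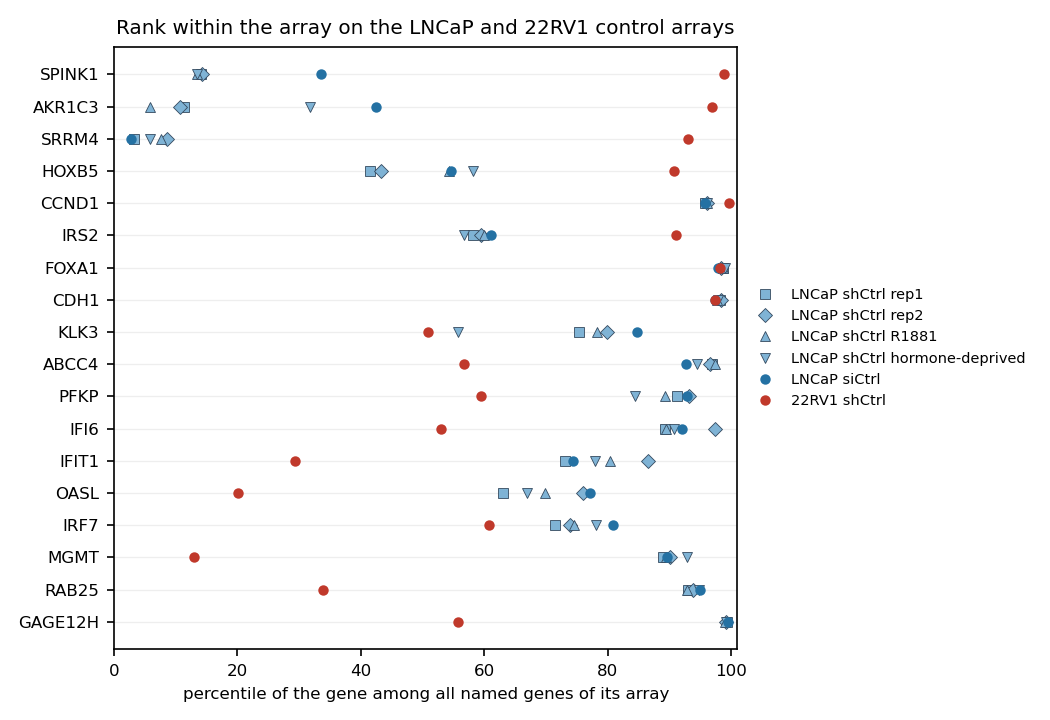
Percentile of 18 genes among all named genes of their array (horizontal) on the 22RV1 shCtrl array (red), the LNCaP siCtrl array (dark blue) and the 4 LNCaP shCtrl arrays (light blue, 1 symbol an array). KLK3 stands at 55.7 on the hormone-deprived array, close to 50.8 in 22RV1, while MGMT, RAB25 and the interferon-stimulated genes are apart from 22RV1 on all LNCaP arrays.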

How the data were processed

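Per the labels, total RNA was hybridized to Illumina bead arrays, and probe values came from GenomeStudio, per the submitters' processing notes. The deposited table of these 4 arrays holds raw probe intensity, with no background subtracted. The columns that its header calls detection p-value hold whole numbers and were not used. For the LNCaP shRNA arrays the deposited table holds background-subtracted intensity and a detection p-value, and a probe was detected there at a p-value below 0.05. The deposited matrix of intensity normalized by the authors served as an alternative.

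In R 4.3.3 with limma 3.58.1, each array's background was taken from the mode of its intensity, normexp was applied with an offset of 16, and quantile normalization of the 4 arrays followed on log2 values. A probe was detected above the mode plus 1.645 SD. Of 47315 probes 30113 had 1 symbol, 8 had several and 17196 were not listed. A gene was read from its brightest probe over the 4 arrays. The steps recovered known changes in simulated data. Few probes were changed there, each by more than 2-fold and from well above background. Changes near 2-fold, changes of low values and many genes apart at once were not simulated.

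With 1 array a group there is no test, and the number of arrays limits the precision. Named genes were set by a rule: 12 genes of interest, the 15 largest differences in each direction also called on the knockdown pair, up to 6 called and 2 uncalled members of each list, genes opposite on the knockdown pair, and the brightest genes. Other genes named to complete a count, for a probe family or as markers were chosen after their values were seen. The lists and genes were chosen with earlier results of these data known. Of 824 members written for 35 lists, 76 had no named probe, and genes without one are not analysed here. Symbols were compared with RefSeq (GRCh38.p14).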

Additional observations from a re-analysis of the deposited data

Results flagged for a closer look

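These 4 genes were called in opposite directions on the control and the FoxA1-knockdown arrays, 1 array each, so the difference was not tested. SBSPON, a somatomedin and thrombospondin domain protein, was undetected on the LNCaP control array, so its control difference has only a bound, at least 1.78-fold higher in 22RV1 and under the 2-fold limit, against a measured difference of -2.19 on the knockdown arrays. Its opposite call rests on the normalized difference of 1.10. SOX9 differed by 2.21 and -1.39, MGP, the matrix Gla protein, by 1.03 and -1.22, and PLIN2, of lipid droplets, by 1.07 and -1.05. On the LNCaP arrays SBSPON was 4.20 with siCtrl and 7.01 with siFoxA1, and SOX9 was 5.83 and 8.58. All 4 LNCaP shCtrl arrays ranked on the LNCaP side of 22RV1 for each of the 4 genes.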

How the results depend on the processing

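Under 8 of 10 alternative settings, the counts of genes higher and lower stayed within 1.5 times of 2423 and 1933. The exceptions were no background correction, with 1334 and 982, and the 3-fold limit, with 1253 and 861. With median scaling the lower count was 2748. Leaving out the detection filter left both counts at 2423 and 1933, so the filter removed no gene at the 2-fold limit. Of 183 named genes at least 2-fold apart, 182 had 1 sign under every setting run for them and 123 were at least 2-fold apart under every one. The exception in sign was FAM177A1, at -0.15 with the mean of its detected probes, since its probes disagree. Of 35 list medians 18 had 1 sign throughout. The androgen-activated median ran from -1.55 to -0.90, the neuroendocrine from 0.55 to 1.77, the interferon from -0.89 to -0.30 and the glycolysis median from -1.38 to -0.66. The HOX median ran from 0.00 to 0.63, the mitosis median from -0.03 to 0.59, and the cancer-testis median from -0.74 to 0.00. No paired analysis was possible because each group compared has 1 array. Signal over background limits low genes, whose differences are bounded by the detection limit. These bounds hold for the main processing and not over the settings. Over the settings the difference ran from 5.79 to 8.37 for SPINK1 and from 4.60 to 7.22 for PLA2G3. For UGT2B28 it ran from -2.83 to -0.96, which reaches under 2-fold.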

Other observations

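Runs of neighbouring genes were called the same way. In the gene order of the RefSeq table, among 13504 detected genes placed in it, 51 runs of at least 4 adjacent detected genes had 1 direction, and 20 of these held at least 5. No chance level was computed. The longest, of 10 genes, was the GAGE cluster with PAGE1, lower in 22RV1 and lower in all 10 on the knockdown arrays. The GAGE genes are near-identical copies and which copies a probe reads was not tested, so these need not be 10 separate signals. A run of 6 genes higher in 22RV1 held the imprinted SGCE and PEG10 with PPP1R9A, PON1, PON2 and PDK4, and all 6 were called higher on the knockdown arrays. PEG10, a retrotransposon-derived gene, was undetected in LNCaP and 8.85 in 22RV1, at least 20.8-fold higher, and PDK4, a mitochondrial kinase, was at least 9.77-fold higher. The SSX genes, a family of cancer-testis antigens, formed a run of 5 higher genes, with SSX1 at 5.20 against 8.31, though SSX members are close in sequence and another SSX4 probe differed by -0.14 where its brightest differed by 3.06. These genes were chosen after their values were seen.

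Some of the brightest named probes disagree with other probes of their gene. LAIR1, an inhibitory receptor of leukocytes, was 14.04 in LNCaP and 14.61 in 22RV1, among the 10 brightest genes of the 22RV1 array, while PTPRC and CD3E were undetected, and its probes differed by 0.58 and -0.58. FAM177A1 was 13.27 and 14.46, with probe differences from -1.39 to 1.19. Of 911 genes called higher with at least 2 detected probes, 683 (75.0%) had 1 sign over all of them, and of 623 called lower 532 (85.4%), though all detected probes were at least 2-fold apart for only 267 (29.3%) and 256 (41.1%). The cause was not tested.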
